A study of Gallus gallus with 858 samples.

Results

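The cells compared were sorted chick cells of the late placode stage (14 to 15 somites, ss15). They had much or no detected messenger RNA of a green fluorescent reporter. Reporter-high cells were selected on their GFP mRNA and had at least 100 CPM of GFP, which is GFP reads per 1000000 reads counted in genes. Reporter-silent cells were chosen by having 0 GFP reads. The series held 858 cells, and 86.01% of those of ss15 had at least 500000 counted reads and 1000 detected genes and were kept. The 2 classes held 200 cells, of which 89 were reporter-silent and the rest reporter-high, and 46 cells fell between the limits. Reporter-high cells were 45.1% of the kept ss15 cells (exact 95% interval 38.8 to 51.6), silent cells 36.2% (30.2 to 42.5) and intermediate cells 18.7% (14.03 to 24.1).

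All cells, silent ones included, came from embryos electroporated at head fold stage with the plasmid pTK-Pax2E1-EGFP and were sorted singly as EGFP-positive. Each cell gave 1 SmartSeq2 library, a method that reads full-length transcripts. In the plasmid an enhancer of Pax2, a transcription factor of early ear and kidney development, drives EGFP. The gate was therefore set on EGFP protein, while the classes here were set on GFP mRNA. Electroporation brings plasmid into some cells of the ectoderm and its copies are shared out at division. A cell without detected GFP mRNA may thus lack plasmid copies or enhancer activity, or its GFP mRNA may have been missed. These cannot be told apart. No embryo or plate is named for the ss15 cells, and the stage was collected in 1 sort. Each class was therefore taken as 1 sample, no test between classes was possible and no p-value is given. The 95% intervals are exact and hold for the error of counting reads (folds) or cells (shares), not for differences between embryos. Fold intervals also leave out the spread between cells, so a narrow one does not make a class difference sure.

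The otic placode gives the inner ear and the epibranchial placodes give sensory neurons of cranial ganglia. Both are thickened patches of ectoderm that arise from common otic-epibranchial progenitors. Neural crest cells form next to them at the edge of the neural tube, lose their epithelial junctions and migrate. Placodal cells at this stage are epithelial and are known by transcription factors such as GATA3 and DLX3, otic cells by SOHO-1, LMX1A, SOX8 and SOX10, and epibranchial cells by TFAP2E, NELL1 and VGLL2. SOX8 and SOX10 are also factors of migrating neural crest.

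GFP mRNA was a description of the choice and not a result. Reporter-high cells held 100.9 to 19249 GFP CPM with a median of 385.8. Intermediate cells held 1.15 to 97.2 GFP CPM with a median of 50.4. Just above the limit of 100 CPM lay cells at 100.9, 106.2 and 112.5 GFP CPM, and just below it cells at 97.2, 88.1 and 81.4 GFP CPM. For the sampling of reads alone, 0 reads in silent cells allow at most 1.71 GFP CPM in the deepest library and 5.85 in the shallowest. This takes 3 reads as the limit and leaves out transcripts lost before sequencing. A silent cell may therefore still have held GFP mRNA. Depth overlapped between the classes. Reporter-high cells held 507328 to 1763983 counted reads (median 864164) and silent cells 512534 to 1752770 (median 845573). Genes detected ranged from 1275 to 11092 in high cells (median 4560) and from 1981 to 7531 in silent cells (median 4909). In the median cell 23.6% of reads (high) and 22.995% (silent) fell on the 50 top genes. No pair of these libraries was near-identical, the highest correlation of log2 CPM being 0.867.

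**Figure D1:**
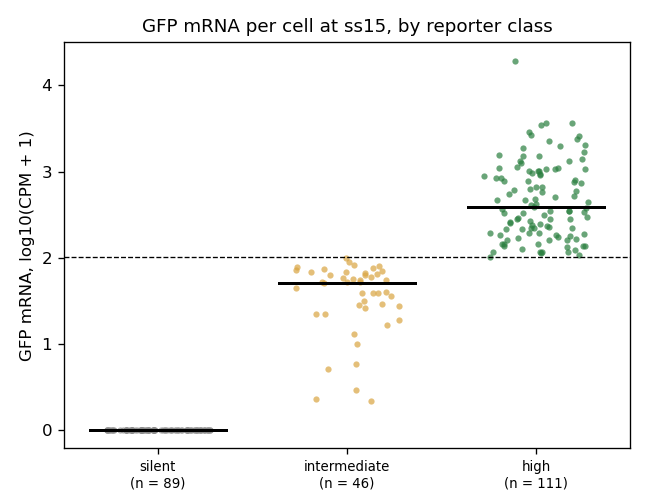
GFP mRNA in each ss15 cell as log10 of CPM plus 1 (y axis) for silent, intermediate and high cells (x axis); each point is 1 cell, thick lines are medians and the dashed line is the limit of 100 CPM. Silent cells lie at 0 by choice, intermediate cells between 1.15 and 97.2 CPM, and high cells from 100.9 to 19249 CPM.

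The first question was how reporter-high cells differed from reporter-silent cells across all genes. Reads were summed over the cells of each class, and a fold is the ratio of the classes' CPM after adding 1 CPM to each. Of 6752 genes measured, with at least 20 CPM and detection at 10 CPM in at least 20% of cells in 1 class, 305 were at least 2-fold higher in reporter-high cells (4.52%) and 319 at least 2-fold lower (4.72%). The median log2 fold over all measured genes was -0.04. Symbols were at hand for 332 identifiers, drawn from the study's own tables, and 34.9% of those were measured. Of these, 66 were at least 2-fold higher and 20 at least 2-fold lower, with a median log2 fold of 1.29. The named genes are thus a set tilted towards genes higher in reporter-high cells, and a gene made in 1 class passes the filter through that class alone. The list counts below are therefore a description and no support for a direction.

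The 10 named genes with the highest folds among those found in at least 40% of high cells were PLEKHS1, MPZL3, ESRP2, ATP8B1, EZR, FA2H, SMAGP, GABRB2, DSP and ADGRG1, with log2 folds of 2.32 to 1.96. Of these, ESRP2 and DSP are on the junction and keratin list. MPZL3, an immunoglobulin-family membrane protein, had 0, 337.8 and 1977 CPM in the lowest, median and highest reporter-high cell, against 0, 0 and 678.2 CPM in silent cells. It was found at 10 CPM in 93 high cells (83.8%, 75.6 to 90.1) and 34 silent cells (38.2%, 28.1 to 49.1). Its summed level was 390.8 CPM in high cells and 79.5 CPM in silent cells, a log2 fold of 2.28 (2.24 to 2.32). The 2 classes overlapped in range, but most high cells had the gene and most silent cells did not. ESRP2, a splicing regulator of epithelia, stood at 245.1 CPM in high cells and 50.9 CPM in silent cells, and was found in 75.7% (66.6 to 83.3) and 28.1% (19.1 to 38.6) of them. EZR, which codes for ezrin and ties the membrane to actin, was at 419.2 CPM in high cells and 98.6 CPM in silent cells. DSP, the desmosome protein desmoplakin, was at 120.7 CPM in high cells and 29.1 CPM in silent cells, and 1 silent cell gave 46.1% of the silent reads. PLEKHS1 shared this pattern, since 1 silent cell gave 49.3% of its silent reads, whereas no high cell gave more than 6.63% of its high reads. All 10 stayed at least 2-fold higher when the top cell of each class was left out.

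The measured junction and keratin genes were mostly higher in high cells. Of the 26 genes listed, 22 had an identifier and 15 were measured. Of these, 13 were at least 2-fold higher in high cells and 0 at least 2-fold lower. Among all measured genes 4.52% were at least 2-fold higher. Among those with a symbol, 66 were at least 2-fold higher and 20 at least 2-fold lower. The 15 had a median log2 fold of 1.55, against 1.29 for all measured genes with a symbol. The junction and keratin count is therefore only a description. CLDN1, the tight junction protein claudin 1, had 0, 3887 and 8159 CPM in the lowest, median and highest high cell, against 0, 109.5 and 8715 CPM in silent cells. The middle 50% of high cells lay between 2689 and 4883 CPM of CLDN1 and that of silent cells between 0 and 1647 CPM, while the full ranges overlapped. It was found in 96.4% of high cells (91.03 to 99.01) and 57.3% of silent cells (46.4 to 67.7), with a log2 fold of 1.86. EPCAM, an adhesion molecule of epithelia, was at 1049 CPM in high cells and 308.9 CPM in silent cells, a log2 fold of 1.76 (1.74 to 1.78). CDH1, which codes for E-cadherin, was at 134.2 CPM in high cells and 45.03 CPM in silent cells, and was found in 69.4% and 23.6% of them. The desmosomal cadherin DSG2 had a log2 fold of 2.03, and the keratins KRT18 and KRT19 had 1.63 and 1.31. The other 2 measured members did not reach 2-fold, KRT7 with 0.72 and the desmosome plaque gene PKP2 with -0.21. The 7 members not measured were OCLN, KRT17, MAL2, EHF, ELF3, PERP2 and TP63.

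**Figure D2:**
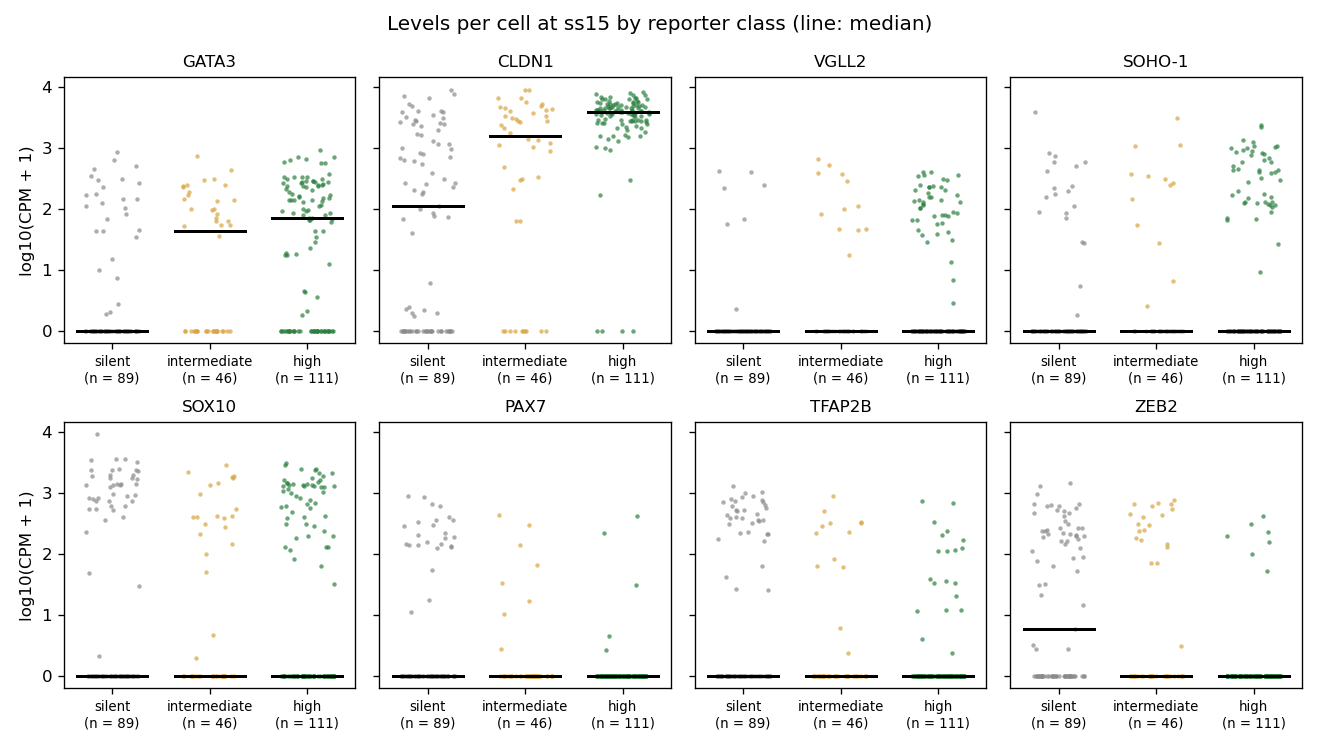
Levels of 8 genes in single ss15 cells as log10 of CPM plus 1 (y axis), for 89 silent, 46 intermediate and the high cells (x axis); each point is 1 cell and thick lines are medians. CLDN1 has a median of 3887 CPM in high cells and 109.5 CPM in silent cells, whereas ZEB2 is seen at 10 CPM in 7 high cells and 44 silent cells and SOX10 at 10 CPM in 49.5% of high cells and 47.2% of silent cells.

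Of 6 measured placodal genes, 4 were at least 2-fold higher in the reporter-high cells and 1 at least 2-fold lower. Since most measured genes with a symbol were at least 2-fold higher, this count is only a description. GATA3, a zinc finger factor of the early placodal ectoderm, had 0, 69.8 and 930.3 CPM in the lowest, median and highest high cell, against 0, 0 and 840.1 CPM in silent cells. It was found in 71 high cells (63.96%, 54.3 to 72.9) and 23 silent cells (25.8%, 17.1 to 36.2), and its log2 fold was 1.46 (1.41 to 1.51). The silent cells that had GATA3 reached the same levels as high cells, so the classes differed in how many cells had the gene. DLX3, a homeobox factor of the placodal ectoderm, had the second highest fold of the list genes measured. It was at 28.6 CPM in high cells and 2.91 CPM in silent cells, and was found in 38 high cells (34.2%, 25.5 to 43.8) and 3 silent cells (3.37%, 0.701 to 9.54). Of the silent DLX3 reads 82.97% came from 1 cell. DLX6, its relative, did not pass the filter, with 17.8 CPM in high cells and 1.79 CPM in silent cells. At least 2 of the 3 placodal markers with an identifier (GATA3, DLX3 and DLX6) were found in 41 high cells (36.9%, 27.97 to 46.6) and 5 silent cells (5.62%, 1.85 to 12.6). None of the 3 was found in 28 high cells (25.2%) and 64 silent cells (71.9%). Of the 16 genes of the placodal list, 7 had an identifier and 6 were measured. Of these GATA3, DLX3, TFAP2E and CLDN1 were at least 2-fold higher, DACT2 was at least 2-fold lower with a log2 fold of -1.29, and the homeobox gene IRX1 had -0.995, just under 2-fold lower. IRX1 had -1.44 among cells with fewer than 2 neural crest markers.

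The measured epibranchial genes were also higher in high cells. Of 26 genes listed, 21 had an identifier and 13 were measured. All 13 were at least 2-fold higher, with a median log2 fold of 1.86. Most measured genes with a symbol were at least 2-fold higher too (66, against 20 at least 2-fold lower), with a median of 1.29. Over all measured genes the share at least 2-fold higher was 4.52%. The epibranchial count is therefore a description and no support for a direction. Among the cells with fewer than 2 neural crest markers 11 of the 13 stayed at least 2-fold higher, and among GATA3-positive cells 3 did, FGF8, VGLL2 and PDLIM1, while CHST9, a sulfotransferase, was at least 2-fold lower there. The 8 others, TLX1, WNT11, F2RL1, EMX1, NKX2-6, NKX2-5, PITX1 and TP63, fell under the limits on level or detection, among them PITX1 with a log2 fold of -0.54 and TP63 with 0.55. VGLL2, a cofactor of TEAD transcription factors, was found in 44 high cells (39.6%, 30.5 to 49.4) and 6 silent cells (6.74%, 2.51 to 14.1). Its highest cell had 405.4 CPM among high cells and 409.9 CPM among silent cells, and the median cell of both classes had 0. TFAP2E, an AP-2 factor, was at 22.004 CPM in high cells and 5.35 CPM in silent cells. NELL1, which codes for a secreted protein, was at 98.7 CPM in high cells and 34.5 CPM in silent cells. ISL1, a LIM homeodomain factor of sensory neurons and pharyngeal tissue, was at 105.9 CPM in high cells and 26.8 CPM in silent cells. The repressor PRDM1 had the smallest fold of the 13 measured, with a log2 value of 1.38, and was found in 41.4% of high cells and 28.1% of silent cells. At least 2 of 6 epibranchial markers (ISL1, NELL1, PDLIM1, PRDM1, TFAP2E and VGLL2) were found in 71 high cells (63.96%, 54.3 to 72.9) and 20 silent cells (22.5%, 14.3 to 32.6).

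Otic genes lay on both sides. Of 24 genes listed, 9 had an identifier and 8 were measured, of which 2 were at least 2-fold higher and 3 at least 2-fold lower, with a median log2 fold of -0.27. Over all measured genes 4.52% were at least 2-fold higher and 4.72% at least 2-fold lower. The 2 higher otic genes were the homeobox genes SOHO-1 and LMX1A. SOHO-1 was found in 49 high cells (44.1%, 34.7 to 53.9) and 18 silent cells (20.2%, 12.4 to 30.1), at 234.2 CPM summed in high cells and 89.7 CPM in silent cells. A single silent cell gave 40.3% of the silent SOHO-1 reads. LMX1A was at 58.1 CPM in high cells and 19.8 CPM in silent cells, a log2 fold of 1.504 (1.43 to 1.58). SOX8 was found in 61 high cells (54.95%, 45.2 to 64.4) and 55 silent cells (61.8%, 50.9 to 71.9), with 0, 38.99 and 805.1 CPM in the lowest, median and highest high cell, against 0, 59.6 and 1258 CPM in silent cells. Its log2 fold was 0.22. SOX10 was found in 55 high cells (49.5%, 39.9 to 59.2) and 42 silent cells (47.2%, 36.5 to 58.1), and its log2 fold was -0.45 (-0.47 to -0.44). The highest SOX10 value, 9062 CPM, belonged to a silent cell that also had 499.9 CPM of SOHO-1 and 759.6 CPM of TFAP2B, a factor of neural crest. The 3 lower otic genes were DACT2, MYL4 and COL9A3. COL9A3, a collagen chain, was found in 11 high cells (9.91%, 5.05 to 17.03) and 32 silent cells (35.96%, 26.05 to 46.8), and 1 high cell gave 33.1% of its high reads.

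Markers were also counted cell by cell. At least 2 of the 5 otic markers, which were DACT2, LMX1A, SOHO-1, SOX10 and SOX8, were found in 64 high cells (57.7%, 47.9 to 66.98) and 50 silent cells (56.2%, 45.3 to 66.7). Of those cells, 9 of the 64 high ones (14.1%, 6.64 to 25.02) and 29 of the 50 silent ones (58%, 43.2 to 71.8) also had at least 2 neural crest markers. Among all silent cells with at least 2 crest markers, SOX10 was found in 81.1% and DACT2 and SOX8 in 78.4% each. SOHO-1 and LMX1A were found in 18.9% and 16.2% of them. The otic count therefore does not separate otic from crest cells. High cells fell into 34 with at least 2 otic and fewer than 2 epibranchial markers (30.6%), 41 with the reverse (36.9%), 30 with at least 2 of both (27.03%) and 6 with fewer than 2 of either (5.41%). Silent cells fell into 41 (46.1%), 11 (12.4%), 9 (10.1%) and 28 (31.5%) in the same order.

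**Figure D3:**
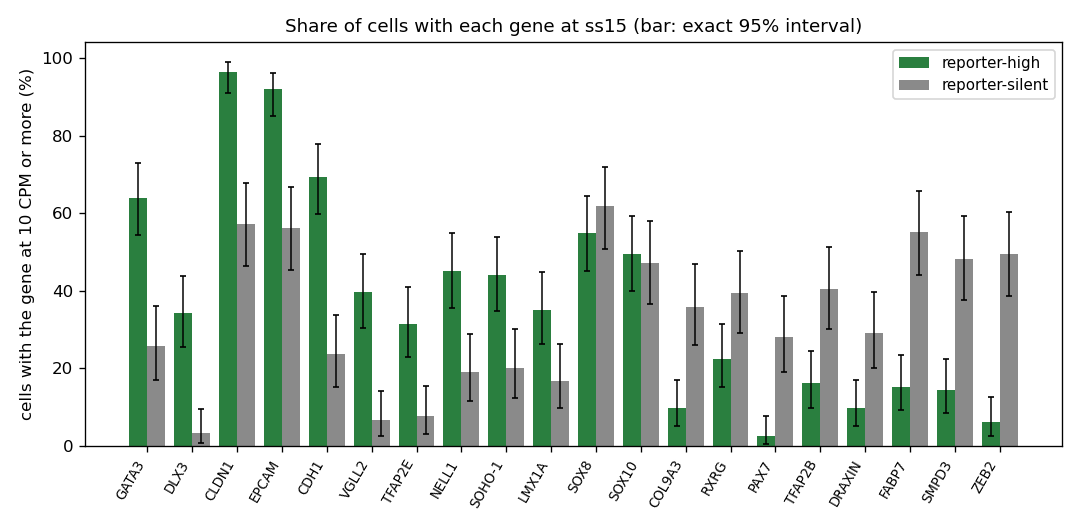
Share of ss15 cells with each gene at 10 CPM or more (y axis, percent) for 20 genes (x axis), in reporter-high cells (green, left bar) and 89 reporter-silent cells (grey, right bar); whiskers are exact 95% intervals for counting error. CLDN1 is found in 96.4% of high cells and 57.3% of silent cells, SOX10 in 49.5% and 47.2%, and ZEB2 in 6.31% and 49.4%.

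The 10 named genes with the lowest folds among those found in at least 40% of silent cells were ZEB2, SMPD3, TFAP2B, FABP7, SUFU, NCALD, LEF1, DACT2, MYL4 and TIMP2, with log2 folds of -3.58 to -1.11. ZEB2, a repressor of E-cadherin that acts in neural crest and neural tissue, had 0, 0 and 413.5 CPM in the lowest, median and highest high cell, against 0, 4.96 and 1442 CPM in silent cells. It was found in 7 high cells (6.31%, 2.57 to 12.6) and 44 silent cells (49.4%, 38.7 to 60.2). Its summed level was 12.8 CPM in high cells and 163.2 CPM in silent cells, which is 11.9-fold lower in high cells. FABP7, a fatty acid binding protein of neural progenitors and glia, was found in 15.3% of high cells (9.18 to 23.4) and 55.1% of silent cells (44.1 to 65.6), at 8.56 and 65.5 CPM. SMPD3, a sphingomyelinase, was at 7.30 CPM in high cells and 69.1 CPM in silent cells. SUFU, an inhibitor of Hedgehog signalling, NCALD, a calcium sensor, and LEF1, a transcription factor of the Wnt pathway, had log2 folds of -1.56, -1.42 and -1.41. MYL4, a myosin light chain, and TIMP2, an inhibitor of metalloproteinases, differed least, and were found in 46.8% and 42.3% of high cells and in 67.4% and 49.4% of silent cells. One high cell gave 23.01% of the MYL4 reads of high cells.

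Most measured neural crest genes were lower in the high cells. Of 24 genes listed, 10 had an identifier and 6 were measured, with a median log2 fold of -2.33. Of these, 4 were at least 2-fold lower (PAX7, TFAP2B, DRAXIN and RXRG) and COL14A1 at least 2-fold higher. LMO4 had -0.81. Among all measured genes 4.72% were at least 2-fold lower and 4.52% at least 2-fold higher. Among those with a symbol, 20 were at least 2-fold lower and 66 at least 2-fold higher. The neural crest count is only a description. PAX7, a paired box factor of the neural plate border and crest, was found in 3 high cells (2.70%, 0.561 to 7.70) and 25 silent cells (28.1%, 19.1 to 38.6). Its level was 6.21 CPM in high cells and 78.4 CPM in silent cells, a log2 fold of -3.46 (-3.57 to -3.36), and 46.8% of the high reads came from 1 cell. TFAP2B was found in 18 high cells (16.2%, 9.903 to 24.4) and 36 silent cells (40.4%, 30.2 to 51.4), and its log2 fold was -2.95. DRAXIN, a secreted guidance protein that also blocks Wnt signalling, was at 12.95 CPM in high cells and 98.6 CPM in silent cells. RXRG, a retinoid X receptor, was at 33.98 CPM in high cells and 122.3 CPM in silent cells. It was nonetheless found in 25 high cells (22.5%, 15.1 to 31.4). FOXD3 and EDNRB, a crest transcription factor and a crest endothelin receptor, did not pass the filter. FOXD3 was found in 2 high cells and 21 silent cells, and EDNRB in 3 high cells and 16 silent cells.

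At least 2 of the 6 neural crest markers PAX7, FOXD3, TFAP2B, DRAXIN, RXRG and EDNRB were found in 9 high cells (8.11%, 3.77 to 14.8) and 37 silent cells (41.6%, 31.2 to 52.5). Their summed level was 79.5 CPM in high cells and 525.3 CPM in silent cells. The 9 high cells with the markers had 115.04 to 1963 GFP CPM, so they did not lie only at the limit. All 9 also had at least 2 otic markers. Most of the 9 had SOHO-1 at 10 CPM or more, 1 of them at 1064 CPM, while others had 0 CPM. A count of 2 crest markers therefore does not exclude otic cells. Cells with exactly 1 marker numbered 35 of the high and 18 of the silent cells, and cells with exactly 2 numbered 4 and 6. At least 2 placodal and 2 crest markers were found together in 4 high cells and 1 silent cell.

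Markers of other tissues, FABP7 aside, were found in few high cells, and most of them in more silent cells. Of the 6 neural tube markers, SOX21, SOX1 and HES5 had no identifier and could not be looked at. At least 2 of ZIC1, ZIC2 and FABP7 were found in 1 high cell (0.901%) and 14 silent cells (15.7%, 8.88 to 24.98). ZIC1, a zinc finger factor of the dorsal neural tube, did not pass the filter, with 0.32 CPM in high cells and 21.4 CPM in silent cells. TWIST1, a factor of mesenchyme, was found in 1 high cell and 8 silent cells. SIM1, a factor of mesoderm and hypothalamus, was found in 0 high cells (at most 3.27%) and 1 silent cell, which held 98.3% of its silent reads. FLI1, the one blood and endothelial marker with an identifier, was found in 2 high cells and 10 silent cells. Neither the 6 mesoderm genes nor the 1 blood and endothelial gene with an identifier passed the filter. What share these cell types had in the folds was not tested. Folds without the cells that had at least 2 neural crest markers are given below.

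Secreted signals and their modulators were next compared. FGF8, a growth factor made by pharyngeal and placodal tissue, had the highest fold of the list genes measured. It was found in 35 high cells (31.5%, 23.04 to 41.04) and 4 silent cells (4.49%, 1.24 to 11.1), at 27.2 CPM in high cells and 2.66 CPM in silent cells, a log2 fold of 2.95 (2.80 to 3.10). FGF18 had 1.29 and BMP2 1.66. In intermediate cells FGF8 was at 38.1 CPM. Of the 36 Wnt pathway genes listed, 11 had an identifier and 8 were measured, of which 3 were at least 2-fold higher and 3 at least 2-fold lower, with a median log2 fold of -0.36. The higher ones were the ligand WNT9B with 2.55, the secreted antagonist SOSTDC1 with 2.15 and TRABD2A, a protease of Wnt ligands, with 2.13. One high cell gave 34.2% of the WNT9B reads of high cells. The lower ones were DRAXIN, LEF1 and DACT2, a binding partner of Dishevelled. Between them lay SFRP1 and TCF7L1 with -0.28 and -0.44. The Wnt counts stand beside 4.52% of all measured genes at least 2-fold higher and 4.72% at least 2-fold lower. HEYL, a Notch target and the one Notch gene with an identifier, had -0.09. The immediate early genes JUN and FOS had 0.14 and -0.09. The chaperone gene HSPA2 had 1.29, and the chemokine CXCL12 had 1.42.

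**Figure D4:**
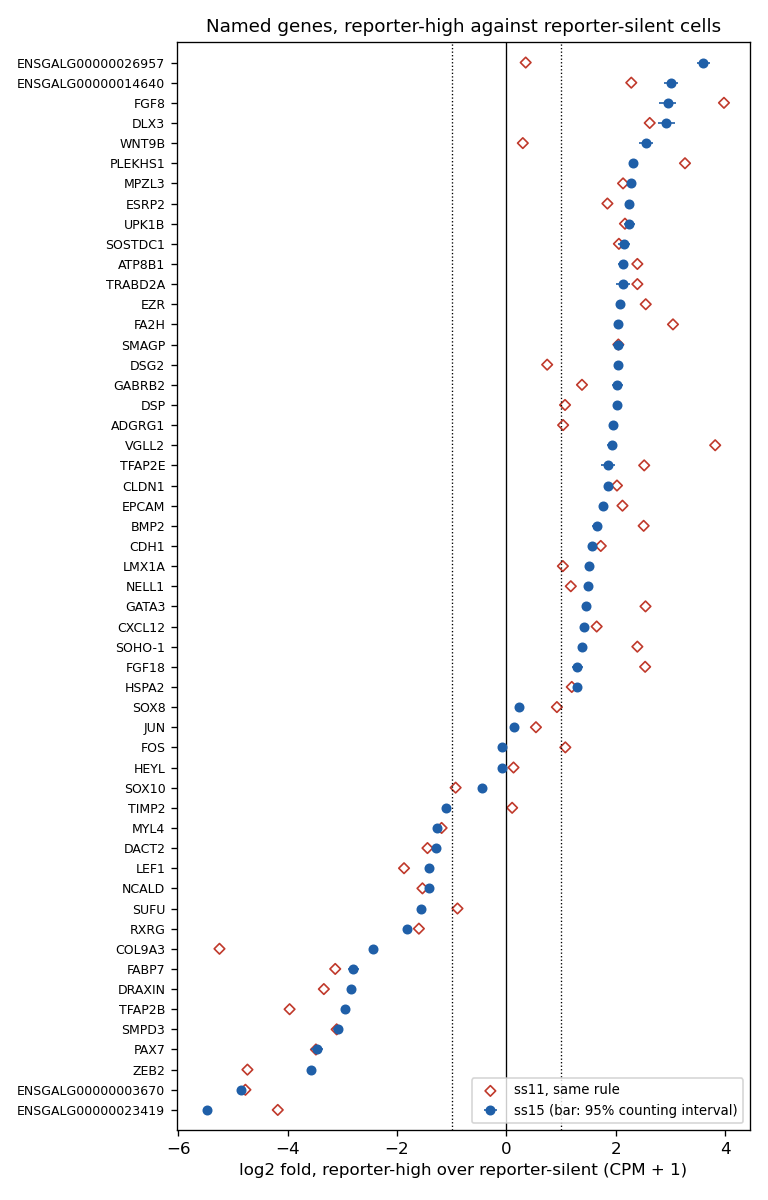
Log2 fold of reporter-high over reporter-silent cells on the CPM plus 1 scale (x axis) for the named genes (y axis), at ss15 (blue points, bars are 95% counting intervals) and at ss11 (red open diamonds); dotted lines mark 2-fold. FGF8 and DLX3 lie highest of the genes with a symbol at ss15 (2.95 and 2.92) and ZEB2 lowest (-3.58), while SOX8, JUN, FOS and HEYL lie near 0.

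The largest differences of all belonged to genes without a symbol. ENSGALG00000026957 was found in 41 high cells (36.9%) and 6 silent cells (6.74%), with a log2 fold of 3.60, and ENSGALG00000014640 had 3.01. ENSGALG00000003670 was found in 13 high cells (11.7%, 6.39 to 19.2) and 51 silent cells (57.3%, 46.4 to 67.7), at 10.5 CPM in high cells and 330.9 CPM in silent cells. ENSGALG00000023419 was found in 0 high cells (at most 3.27%) and 23 silent cells (25.8%, 17.1 to 36.2), with 9 reads in all high cells and 3733 in all silent cells.

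Along GFP the genes did not change in the same way. CLDN1 was at 1051 CPM in silent cells, 1722 CPM in the 22 cells with GFP under 50 CPM, 3047 CPM in the 24 cells at 50 to 100 CPM, 3304 CPM in the 29 cells at 100 to 200 CPM, and 4024, 4043 and 3886 CPM in the 33, 21 and 28 cells at 200 to 500, 500 to 1000 and over 1000 CPM. CLDN1 was thus higher in each bin up to 200 to 500 CPM and differed little above. GATA3 was found in 25.8% of silent cells, 40.9% (20.7 to 63.6) of cells under 50 CPM, 62.5% (40.6 to 81.2) at 50 to 100 CPM, and 55.2%, 57.6%, 76.2% and 71.4% in the 4 bins above 100 CPM, whose intervals overlap. ZEB2 was found in 49.4% of silent cells, 50% (28.2 to 71.8) of cells under 50 CPM, 33.3% (15.6 to 55.3) at 50 to 100 CPM and 13.8% (3.89 to 31.7) at 100 to 200 CPM. In the 3 bins above 200 CPM it was found in 6.06%, 0% (at most 16.1%) and 3.57% of cells. Intermediate cells as a whole had ZEB2 at 156.8 CPM, close to the 163.2 CPM of silent cells, but FABP7 at 28.2 CPM and PAX7 at 22.3 CPM, between the high and the silent class. SOX10 was found in 47.2% of silent cells, 27.3% (10.7 to 50.2) of cells under 50 CPM and 39.4% to 58.3% of cells in the 5 bins above.

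The reverse view took all kept ss15 cells that had a gene. It recasts the same cells as the shares above and is no separate evidence. Of all kept ss15 cells, 45.1% were high and 36.2% silent. Of the cells with GATA3, 60.2% (50.7 to 69.1) were reporter-high and 19.5% (12.8 to 27.8) silent. Of the 53 cells with DLX3, 71.7% (57.7 to 83.2) were high and 5.66% (1.18 to 15.7) silent, and of the 62 with VGLL2, 70.97% and 9.68%. Of the 78 cells with SOHO-1, 62.8% (51.1 to 73.5) were high and 23.1% (14.3 to 33.9973) silent. Of the 34 cells with PAX7, 8.82% (1.86 to 23.7) were high and 73.5% (55.6 to 87.1) silent, and of the 70 with ZEB2, 10% (4.12 to 19.5) and 62.9% (50.5 to 74.1). SOX8 and SOX10 cells were divided much like all kept cells, with 43.6% and 47.01% high and 39.3% and 35.9% silent.

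Since crest-marked cells were unequally shared, the folds were taken again without the 9 high and 37 silent cells with at least 2 neural crest markers, which left 52 silent cells. Cells with exactly 1 marker, 35 high and 18 silent, stayed in, so crest cells may remain. The cells left out may include otic cells, since most of the 9 high ones also had SOHO-1. Of 6603 genes measured there, 320 were at least 2-fold higher in high cells (4.85%) and 410 at least 2-fold lower (6.21%). All of the 10 highest named genes stayed at least 2-fold higher. Of the 10 lowest, 5 stayed at least 2-fold lower. Of the 15 junction and keratin genes measured in all cells, 7 were at least 2-fold higher here, with a median log2 fold of 0.92. ZEB2 had a log2 fold of -3.78 and FABP7 of -3.03, both no smaller than in all cells. SMPD3 had -1.41, and TFAP2B, which the split itself used, had -0.73. LEF1 and DACT2 turned to 0.33 and 0.48, SOX10 to 0.69 and COL9A3 to -0.47. Among silent cells, COL9A3 was found in 9.62% of the 52 silent cells with fewer than 2 markers and 72.97% of the 37 with at least 2, LEF1 in 17.3% and 75.7%, and DACT2 in 19.2% and 78.4%. SOX10 was found in 23.1% of the 52 and 81.1% of the 37, at 280.2 and 1257 CPM. SOX8 differed less, with 50% and 78.4%. FABP7 was found in 36.5% of the 52 and 81.1% of the 37, at 44.4 and 91.1 CPM. ZEB2 was found in 38.5% and 64.9% of them, and SMPD3 in 25% and 81.1%. EPCAM was found in 91.9% of high cells, 73.1% of the 52 and 32.4% of the 37. GATA3 was found in 63.96% of high cells, 32.7% of the 52 and 16.2% of the 37. Its log2 fold among cells with few crest markers was 0.71, that of SOHO-1 0.65 and that of CDH1 0.92, all under 2-fold.

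**Figure D5:**
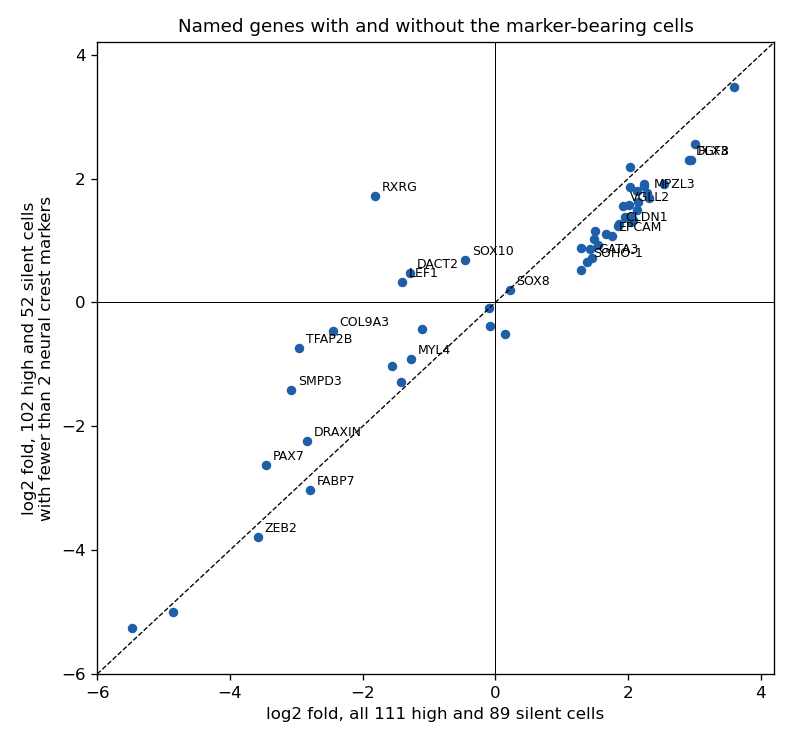
Log2 fold of reporter-high over reporter-silent cells in all high and silent cells (x axis) against the fold in the cells with fewer than 2 neural crest markers (y axis); each point is a named gene and the dashed line marks equal values. ZEB2 and FABP7 lie on or below the line, LEF1 and DACT2 cross 0 and RXRG, one of the markers, lies at -1.82 on the x axis and 1.72 on the y axis.

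A narrower comparison was made within GATA3-positive cells, 71 high and 23 silent. With only 23 silent cells, 513 of 6791 genes were at least 2-fold higher (7.55%) and 593 at least 2-fold lower (8.73%). CLDN1 was at 3599 CPM in high cells and 2782 CPM in silent cells, a log2 fold of 0.37, and EPCAM had 0.61. CDH1, SOHO-1 and NELL1 had 0.04, 0.01 and -0.18, PRDM1 had -0.11, COL14A1 -0.35 and CHST9 -1.14. The 13 measured epibranchial genes had a median log2 fold of 0.35, and 4 of the 15 junction and keratin genes were at least 2-fold higher. GATA3 itself, which chose these cells, had -0.01. DLX3 kept a log2 fold of 3.31, FGF8 of 2.32, VGLL2 of 1.23 and LMX1A of 1.32, but DLX3, FGF8 and VGLL2 were each found in only 2 of the 23 silent cells and LMX1A in 6. Of the 10 highest named genes, 5 stayed at least 2-fold higher, and SMAGP, MPZL3, GABRB2, FA2H and ATP8B1 did not, with 0.99 to 0.34. Of the 10 lowest, 5 stayed at least 2-fold lower. ZEB2 stayed lower with -2.51, SMPD3 with -2.24 and TFAP2B with -3.48.

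The same rule applied at ss11 (11 to 12 somites), in cells of a separate sort, gave 6860 measured genes, of which 5.03% were at least 2-fold higher in high cells and 3.98% at least 2-fold lower. Among 6429 genes measured at both stages, those at least 2-fold higher at both were 55.5% of the genes so called at ss15 and 53.9% of those so called at ss11. Those at least 2-fold lower at both were 46.9% and 55.8% in the same order. All of the 10 highest and 8 of the 10 lowest named genes were past 2-fold in the same direction at ss11, SUFU (-0.90) and TIMP2 (0.10) being the others. Of 57 named and measured genes past 2-fold at ss15, 50 were past 2-fold in the same direction at ss11. VGLL2 had log2 folds of 1.93 at ss15 and 3.81 at ss11, GATA3 1.46 and 2.54, SOHO-1 1.38 and 2.39, and COL9A3 -2.45 and -5.24. ENSGALG00000026957 had 3.60 at ss15 and 0.35 at ss11, and WNT9B 2.55 and 0.30. The difference between the stages was not tested, as each is 1 sort.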

How the data were processed

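Chick cells sorted as EGFP-positive gave 1 SmartSeq2 library each, deposited as 288, 284 and 286 cells at ss8, ss11 and ss15. After adaptor trimming (Cutadapt 2.10) and alignment (HISAT2 2.2.1) to galGal6 plus a GFP sequence, the authors deposited raw read counts per gene from HTSeq 0.12.4, per the methods and processing notes, which also name SAMtools 1.10. The counts of 24356 genes and the separate GFP counts were used as deposited. Kits of this kind mark neither molecules nor strand, so counts include PCR copies, and reads where genes overlap cannot be assigned by strand. The study's limit on mitochondrial reads was not applied. The sort gated single cells, and doublets were not removed further.

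At ss15, 246 cells were kept, 111 high and 89 silent with 46 between. At ss11, 262 were kept, 101 high and 114 silent. Counts were summed per class and scaled to CPM, and log2 folds took 1 CPM as pseudocount. Intervals are conditional binomial for folds and Clopper-Pearson for shares. With fewer than 2 neural crest markers there were 102 high and 52 silent cells. The number of cells with GATA3 was 118. The measured genes with a symbol numbered 116. Genes counted as measured reached 20 CPM in 1 class and 10 CPM in at least 20% of its cells. Named were the 10 highest and 10 lowest folds among measured genes with a symbol found in at least 40% of cells of the higher class, 18 genes followed whatever their value, up to 4 measured members of each list with the largest folds, and 2 identifiers without a symbol on each side. Other list members are given for completeness. Members, markers, lists and the naming rule were chosen with earlier results of these data known. Symbols came from identifier pairs in the study's tables, used as nomenclature, and 96 list genes had one (58 measured), though none of the 30 proliferation genes. TMM factors came from edgeR 4.0.16 and size factors from DESeq2 1.42.0. Other alternatives were no filter or a stricter one, a mean over cells, leaving out the top cell, equal depth, other limits on reads and GFP, and a pseudocount of 5 CPM. The fold calculation was tested on simulated data. Analyses ran in Python 3.11.15 with pandas 2.3.3 and scipy 1.17.1.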

Additional observations from a re-analysis of the deposited data

Results flagged for a closer look

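ASTL, which codes for a metalloprotease of the astacin family, had folds of opposite direction at the 2 stages and was named after its values were seen. At ss15 it was at 117.9 CPM in high cells and 35.2 CPM in silent cells, a log2 fold of 1.7181. At ss11 it was at 227.03 CPM in high cells and 580.5 CPM in silent cells, a log2 fold of -1.3505. Without the top cell of each class the log2 folds were 1.69 and -1.09. It was found at 10 CPM in 24.3% of high cells (16.7 to 33.4) and 14.6% of silent cells (8.01 to 23.7) at ss15, and in 34.7% of high cells (25.5 to 44.8) and 23.7% of silent cells (16.2 to 32.6) at ss11. The share of cells was thus higher in high cells at both stages, while the highest cell at ss11 had 4019 CPM among high cells and 21339 CPM among silent cells. The difference between the stages was not tested, since each stage is 1 sort.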

How the results depend on the processing

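Of the 61 genes named that were past 2-fold, 4 of them under the filter on level, all kept their direction and stayed past 2-fold under 10 of 15 alternatives, which were TMM factors, DESeq2 size factors, the mean over cells, equal depth, no filter, a minimum of 50 CPM, no limit on reads and genes, reporter-high from 50 or from 200 GFP CPM, and silent cells taken below 1 GFP CPM. Leaving out the filter, or setting it at 50 CPM, changed no fold, and the limit of 1 GFP CPM took the same silent cells. These alternatives could therefore lose no gene. SIM1 was lost without the top cell of each class, CHST9 and TIMP2 with at least 1000000 reads and 2000 genes, and TWIST1 with a pseudocount of 5 CPM. Among cells with fewer than 2 neural crest markers 43 of 61 stayed, and among GATA3-positive cells 27. Genes lost in the first setting included RXRG, TFAP2B and FOXD3, markers that the split itself used. Both settings hold fewer cells. In cells with fewer than 2 crest markers DACT2 turned to 0.4766, LEF1 to 0.3283 and RXRG, which helped choose the cells, to 1.7246. In GATA3-positive cells NELL1 turned to -0.1773, PRDM1 to -0.1083, COL14A1 to -0.3549, CHST9 to -1.1362 and GATA3, which chose the cells, to -0.0058. The share of measured genes at least 2-fold higher was 4.52%, and 7.43% with no filter, 10.2% with the stricter limits on cells (35 high and 29 silent cells) and 7.55% in GATA3-positive cells. The share at least 2-fold lower was 4.72%, and 8.15%, 9.49% and 8.73% in the same order. As counts, no filter gave 1523 higher and 1671 lower, the stricter cells 718 and 668, and GATA3-positive cells 513 and 593. A minimum of 50 CPM gave 306 genes past 2-fold in either direction, against 624. The median of all genes moved by less than 0.1 under TMM and DESeq2 factors. No paired analysis was possible because each class is 1 sample with no replicate number. Folds rest on 1 sort, and embryo or plate effects could not be checked.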
